A study of Mus with 6 samples.

Results

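Genes whose symbol starts with Nduf encode the nuclear subunits of respiratory complex I and a family of its assembly factors. They were picked by symbol from a table of ribosome-bound RNA, which gave 48 genes of 18887. The choice was made with earlier results of these data known. Complex I, NADH:ubiquinone oxidoreductase, takes electrons from NADH, passes them along a chain of iron-sulfur clusters to ubiquinone and pumps protons across the inner mitochondrial membrane. Its catalytic core is conserved from bacteria. Part of that core is encoded in the nucleus and the rest on mitochondrial DNA, and mammals have added many supernumerary subunits around it. Assembly factors build the enzyme in separate modules and do not stay in the finished complex. In the brain, neurons draw heavily on oxidative phosphorylation, and astrocytes and microglia also carry the whole enzyme.

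The study used RiboTag, in which a tagged ribosomal protein is expressed in a chosen cell type and precipitated together with the mRNA on its ribosomes. All 6 libraries were precipitates from whole mouse brain that the labels assign to microglia, the brain's resident immune cells. The group titled IRKO, with the genotype label KO, had 4 libraries, and the control group, titled MG with the genotype label Ctr, had 2. The study's title concerns lost insulin signalling in microglia, and IRKO was taken to mean an insulin receptor knockout. The promoter that drove the tag or the deletion, the age and sex of the mice, and any pooling of animals are not stated in the labels, and no input library was used here. Whether the replicates are different animals is not stated either. P-values therefore reflect variation among these libraries alone, part or all of which may be technical.

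The values are normalized counts, that is reads of a gene divided by a size factor of the library. Read totals recovered from them were 13858978 to 14568773 in IRKO and 16883098 and 19010680 in the controls. Insr, the gene of the insulin receptor, had 357, 366, 290.5 and 339.9 in IRKO, against 565 and 532 in the controls, a log2 change of −0.70 ± 0.14 (SE, limma adjusted p = 0.00211), so the groups did not overlap. The 2 groups differed widely. Of 14698 genes tested, 55.6% were called at a limma adjusted p under 0.05, 29.0% lower and 26.6% higher in IRKO. All 28 microglia markers rose on the deposited scale, with a summed level of 293314 to 412900 in IRKO, against 110851 and 138546 in the controls, and none was at 0 in any library. All 20 astrocyte markers fell, with a summed level of 50166 to 80737 in IRKO, against 654055 and 836763 in the controls, and they too were above 0 in every library. Of 20 neuron markers 16 rose and none fell, with summed levels of 94117 to 120150 in IRKO and of 53302 and 66214 in the controls, although 14 fell and none rose once libraries were scaled to equal microglia markers, which moved all genes alike and left 84.3% of those tested called lower. All 10 liver markers fell, with a summed level of 26.7 to 77.7 in IRKO, against 764 and 11761 in the controls, and 3 of them were at 0 in every IRKO library. All 5 red blood cell markers fell too, with 243 to 2132 in IRKO, against 75516 and 161622 in the controls. Of 8 markers of choroid plexus and ependyma 6 fell, with 940.0 to 12488 in IRKO, against 5003 and 69213 in the controls. Markers of the labelled cell type were thus present in both groups, beside RNA of other cells. In both controls the summed astrocyte markers exceeded the summed microglia markers, and in every IRKO library the reverse held. Sums over different markers do not measure shares of cells. The changes below therefore cannot be assigned to microglia alone. In such bulk samples, fewer cells of a type and less RNA per cell cannot be told apart.

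Complex I transcripts were mostly lower in IRKO. Of the 47 Nduf genes that passed the filter on low values (at least 10 normalized counts in at least 2 libraries), 29 fell, 2 rose and 16 were not called. That is 61.7% lower and 4.26% higher, against 29.0% and 26.6% of all tested genes. The median of their log2 changes was −0.57, against a median of 0.02 over all tested genes, and the changes ran from −1.67 for Ndufs1 to 1.42 for Ndufa4l2. For 34 of the 47 all 4 IRKO values lay below both control values, which held for 34.8% of all tested genes. Only Ndufb4b failed the filter, with at most 8.998 normalized counts in any library. The falls were moderate: 9 of the 47 were at least 2-fold lower, and the other 20 that fell did so by less. Over all tested genes, 2056 (14.0%) were called and at least 2-fold lower.

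**Figure D1:**
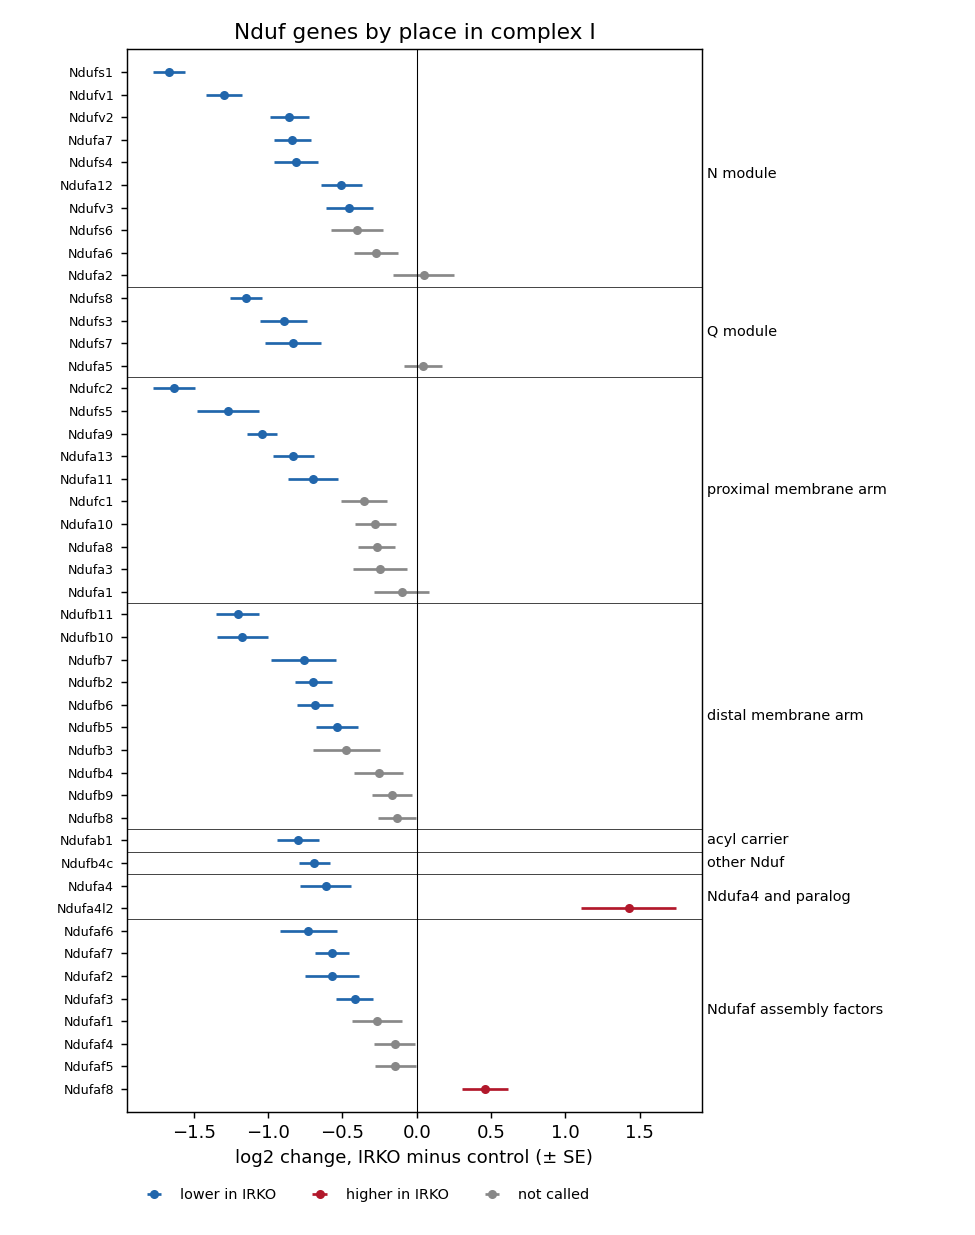
Log2 change (horizontal axis, IRKO minus control, with standard errors as bars) of 46 tested Nduf genes, grouped by place in the enzyme, with colour for the call at a limma adjusted p under 0.05. The 6 core subunits described here (Ndufs1, Ndufv1, Ndufv2, Ndufs3, Ndufs7 and Ndufs8) lie at −0.83 or lower, and Ndufa4l2 and Ndufaf8 are the 2 genes called higher, neither of them when libraries are scaled to the microglia markers.

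The N module at the tip of the peripheral arm receives the electrons of NADH, and 7 of its 10 genes fell while none rose. Ndufs1, the large iron-sulfur subunit of the core, had 989.6, 948, 946 and 877 in IRKO, against 2842 and 3134 in the controls. The groups were far apart, and Ndufs1 fell 3.18-fold (−1.67 ± 0.11 log2, SE, limma adjusted p = 2.84e-06). Ndufv1, which binds NADH and its flavin cofactor, had 2445, 2704, 2495 and 2145 in IRKO, against 6081 and 5889.6 in the controls, and fell 2.45-fold (limma adjusted p = 3.08e-05). Ndufv2, the third core subunit of this module and an iron-sulfur protein, had 2519, 2475, 2372 and 1954 in IRKO, against 4042 and 4364 in the controls. The groups stood apart there as well, with a smaller fall of 1.81-fold (limma adjusted p = 0.000567).

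Among the supernumerary subunits of the N module, Ndufa7 (−0.84 ± 0.12 log2, SE) and Ndufs4 (−0.81 ± 0.15), whose loss in mice is used as a model of Leigh syndrome, fell nearly as far as Ndufv2. Ndufa12 fell by less (−0.51 ± 0.14), and its call was lost without control replicate 2 (limma adjusted p = 0.112). Ndufv3 (−0.45 ± 0.16, limma adjusted p = 0.0343) was called only narrowly: the adjusted p was 0.0996 without control replicate 1, 0.143 without control replicate 2, 0.0776 without IRKO replicate 2, 0.0561 without IRKO replicate 4 and 0.0719 without a variance trend. Ndufs6 (−0.40 ± 0.18) and Ndufa6 (−0.28 ± 0.15) were not called, although their 4 IRKO values lay below both controls. Ndufa2 stood apart from the rest of the module, with 3469, 3582, 3377 and 2176 in IRKO, against 2707 and 3305 in the controls. The groups overlapped, and the log2 change was 0.05 ± 0.20 (limma adjusted p = 0.857).

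The Q module, where ubiquinone is reduced, follows in the path of the electrons. Ndufs8, which carries iron-sulfur clusters, had 1269, 1192, 1266 and 1179 in IRKO, against 2554 and 2883 in the controls, a 2.21-fold fall (limma adjusted p = 2.96e-05). The IRKO libraries lay close together there and well below the controls. Ndufs3 had 2329.8, 2164, 1876 and 1610.0 in IRKO, against 3398 and 3971 in the controls, and fell 1.86-fold (limma adjusted p = 0.00131). Ndufs7, which holds the last cluster before ubiquinone, had 3222, 3300.2, 2748 and 2036 in IRKO, against 4709 and 5195 in the controls, and fell 1.78-fold (limma adjusted p = 0.00504). Ndufs3 and Ndufs7 varied more within IRKO, with replicate 4 lowest in each. Ndufa5, a supernumerary subunit on the same arm, had 4695, 4593, 5167 and 4012 in IRKO, against 4528 and 4415 in the controls. Its groups overlapped, with a log2 change of 0.04 ± 0.13 (limma adjusted p = 0.803). Under quantile normalization Ndufa5 was called higher (0.35, limma adjusted p = 0.0227).

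For the 6 core subunits the median log2 change was −1.02 and the range −1.67 to −0.83, with all 6 lower. The 29 supernumerary subunits had a median of −0.51 and a range from −1.63 to 0.05, with 16 lower and 13 not called. These core calls held in each of the 19 alternative settings tried, although scaling to the microglia markers lowers the log2 changes of all genes alike.

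Of 10 supernumerary genes grouped here with the proximal membrane arm 5 fell and 5 were not called. The group includes Ndufa9, which can also be placed with the Q module. Ndufc2, a small membrane subunit, changed nearly as much as Ndufs1. It had 3211, 2971, 3019.5 and 2420.3 in IRKO, against 8386 and 9553 in the controls, a fall of 3.1-fold (limma adjusted p = 1.81e-05). Ndufs5, a subunit of the intermembrane face, had 2544, 2346, 2328 and 1462 in IRKO, against 4888 and 5371 in the controls, a fall of 2.41-fold (limma adjusted p = 0.000809). For Ndufc2 and Ndufs5 the groups did not overlap, and IRKO replicate 4 was again the lowest. Ndufa9 (−1.04 ± 0.10 log2, SE), which sits near the quinone site, Ndufa13 (−0.83 ± 0.14), also known as GRIM-19, and Ndufa11 (−0.70 ± 0.17) fell as well, the last not under quantile normalization (limma adjusted p = 0.0557). Ndufc1 (−0.35 ± 0.16), Ndufa10 (−0.28 ± 0.14), Ndufa8 (−0.27 ± 0.13) and Ndufa3 (−0.25 ± 0.18) were not called, but Ndufc1 was called lower without control replicate 1 (limma adjusted p = 0.0334) and Ndufa8 without IRKO replicate 3 (limma adjusted p = 0.0499). Ndufa1, an X-linked membrane subunit, had 2050.5, 1867, 1883 and 1269 in IRKO, against 1756 and 1979 in the controls. IRKO replicates 1 to 3 lay between or above the controls and replicate 4 below them (limma adjusted p = 0.666).

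The distal membrane arm, built from the Ndufb subunits around proton-pumping core proteins of the mitochondrial genome, had 6 genes lower and 4 not called. Ndufb11, also X-linked, had 2676 ± 302 (SD, n = 4) in IRKO and 6189 ± 1079.6 (SD, n = 2) in the controls, and fell 2.31-fold (limma adjusted p = 0.000155). Ndufb10 had 2052 ± 335 (SD, n = 4) in IRKO and 4607 ± 739 (SD, n = 2) in the controls, and fell 2.25-fold (limma adjusted p = 0.000471). Ndufb2 (−0.70 ± 0.12 log2, SE) and Ndufb6 (−0.68 ± 0.12) fell by less. The calls of Ndufb7 (−0.76 ± 0.22) and Ndufb5 (−0.54 ± 0.14) were lost without control replicate 2, at limma adjusted p = 0.113 and 0.0741. Ndufb3 (−0.47 ± 0.23) was not called, but was called without IRKO replicate 1 (limma adjusted p = 0.0454). Ndufb8, whose protein is a common marker of assembled complex I on blots, had 5428 to 6716 in IRKO, against 6347 and 6760.1 in the controls (limma adjusted p = 0.411). Ndufb9 had 4930.1 to 6375 in IRKO, against 6032 and 6118 in the controls (limma adjusted p = 0.320). For Ndufb8 and Ndufb9 the groups overlapped.

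Ndufab1, the mitochondrial acyl carrier protein, which sits in both arms of the complex, fell 1.74-fold (limma adjusted p = 0.00128). Ndufb4 (−0.26 ± 0.16 log2, SE) was not called, whereas its gene copy Ndufb4c had 973, 964, 917 and 996 in IRKO, against 1619.7 and 1485 in the controls, and fell 1.61-fold (limma adjusted p = 0.000529). Ndufb4, Ndufb4b and Ndufb4c may share reads, and Ndufb4c lies within Mroh5, so their separate values are uncertain. Reads of Ndufa11, Ndufa12, Ndufab1, Ndufs5 and Ndufs6 could likewise be shared with pseudogene copies that RefSeq lists. Ndufb1 is not analysed here.

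**Figure D2:**
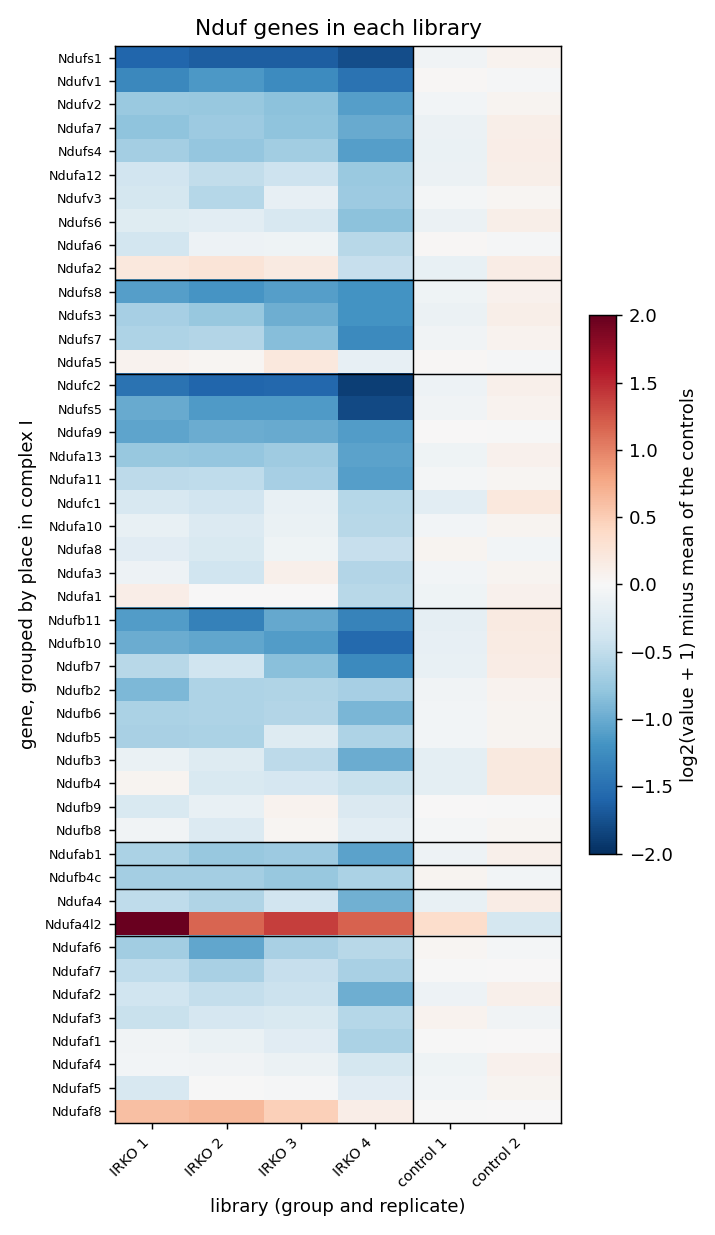
Tested Nduf genes (46 rows) in each library (columns), as log2(value + 1) minus the mean of the controls on the same scale, with the 4 IRKO libraries left of the 2 controls. Ndufs1 and Ndufc2 are the darkest rows in IRKO, on the deposited scale Ndufa4l2 and Ndufaf8 are above the controls in all 4, and replicate 4 is the lowest IRKO library for 36 of the 46 genes drawn.

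Because members moved by different amounts, ratios within a library also differed. Scaling each library by 1 factor cannot alter such ratios, although quantile normalization can. The pairs were chosen after their values were seen and are given as a description, with no test. The 6 core subunits named above made up 11.99%, 12.3%, 10.8% and 11.6% of the summed Nduf value in IRKO replicates 1 to 4, against 15.5% and 15.1% in control replicates 1 and 2. The 8 Ndufaf assembly factors made up 3.82%, 3.97%, 3.74% and 3.90% in IRKO, against 2.86% and 2.66% in the controls. Hence these core subunits took a smaller share and the assembly factors a larger one in every IRKO library. The summed level of the assembly factors was itself lower, at 3302 to 4110 in IRKO, against 4356 and 4499 in the controls. Their share was larger because the other Nduf genes together fell further. Of that sum Ndufaf8, the 1 assembly factor called higher, held 856 to 1222 in IRKO, against 775 and 791 in the controls. The ratio of Ndufs1 to Ndufa5 was 0.211, 0.206, 0.183 and 0.219 in IRKO and 0.628 and 0.710 in the controls. That of Ndufc2 to Ndufc1 was 3.26, 3.14, 2.71 and 2.91 in IRKO and 7.89 and 6.68 in the controls. Between core partners of the N module the shift was smaller, with a ratio of Ndufv1 to Ndufv2 of 0.971, 1.09, 1.05 and 1.10 in IRKO and of 1.504 and 1.35 in the controls.

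**Figure D3:**
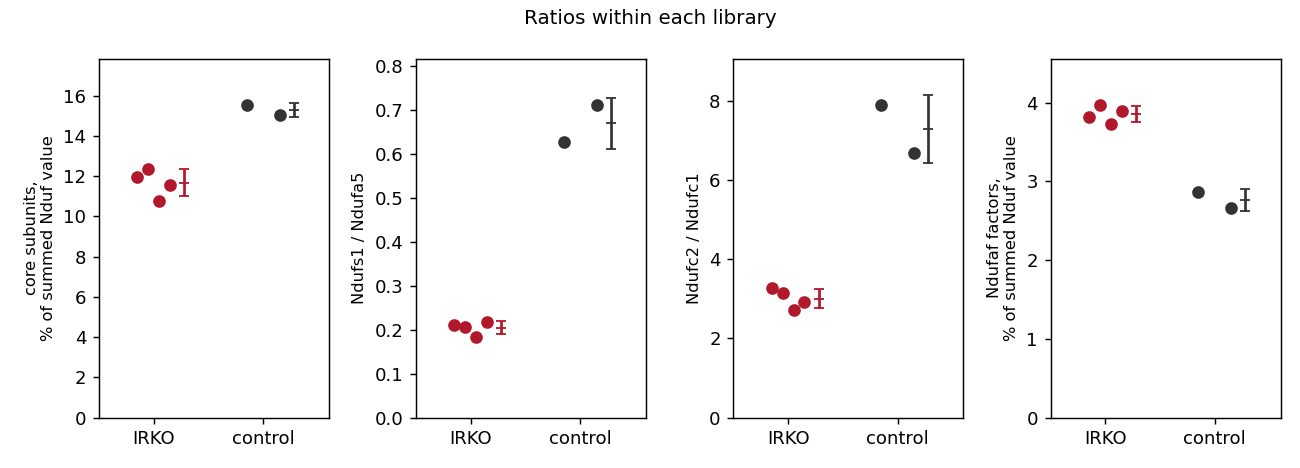
Quantities computed within each library, with IRKO left and control right in each panel, points for libraries and bars for the mean ± SD (n = 4 and 2). The share of the 6 core subunits in the summed Nduf value is 10.8% to 12.3% in IRKO and 15.5% and 15.1% in the controls, and in none of the panels do the groups overlap.

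Ndufa4, first described with complex I and now placed in complex IV, had 4419.9, 4132, 4811 and 3206 in IRKO, against 5677 and 6921 in the controls. It fell 1.53-fold (limma adjusted p = 0.0139), a call lost without control replicate 2 (limma adjusted p = 0.119). Its paralog Ndufa4l2, induced by hypoxia and known in the brain as a gene of pericytes, went the other way. Ndufa4l2 had 106, 60.1, 70.0 and 60.4 in IRKO, against 33.7 and 20.3 in the controls, so each IRKO value was above both controls at a low level. It rose 2.68-fold (1.42 ± 0.32 log2, SE, limma adjusted p = 0.00452). The call held in every alternative except scaling to the microglia markers, where the log2 change was −0.19 (limma adjusted p = 0.636). Set against Ndufa4 in the same library, Ndufa4l2 was 2.40%, 1.46%, 1.45% and 1.88% of it in IRKO and 0.594% and 0.294% in the controls. Of 14 endothelial and mural markers 7 rose (50%), 1 fell (7.14%) and 6 were not called, against 26.6% higher and 29.0% lower among all tested genes. Their summed level was 13214, 5407, 3647 and 6705 in IRKO replicates 1 to 4, against 3809 and 4436 in the controls, and none was at 0. IRKO replicate 3 was thus below both controls. Among the mural genes Kcnj8, Abcc9, Rgs5 and Higd1b rose (log2 changes of 1.53, 1.49, 0.97 and 1.10 as deposited, and −0.081, −0.12, −0.64 and −0.51 scaled to the microglia markers), and Pdgfrb fell (−1.22 ± 0.29). The listed mural genes Vtn, Acta2 and Tagln are not described here. The part of mural cells' RNA in the rise of Ndufa4l2 was not tested.

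The Ndufaf assembly factors were mixed, with 4 of 8 lower, 1 higher, 3 not called and a median log2 change of −0.34. Their roles are known mostly from human cells. Ndufaf7, a mitochondrial methyltransferase, had 610.2, 552, 629 and 553 in IRKO, against 863 and 877 in the controls, and fell (−0.57 ± 0.11 log2, SE, limma adjusted p = 0.00239). Ndufaf6, which acts early in assembly, had 94.1, 73.9, 97.2 and 103 in IRKO, against 156 and 148 in the controls (limma adjusted p = 0.0106, and 0.0647 without control replicate 1). Both lay below the controls in every IRKO library. Ndufaf2, which helps to attach the N module, had 410.1, 391, 404 and 274 in IRKO, against 503 and 585 in the controls (limma adjusted p = 0.0248, and 0.150 without control replicate 2). Ndufaf3, which works on the Q module, had 475, 512, 524 and 434 in IRKO, against 677 and 619 in the controls (limma adjusted p = 0.0187, and 0.128 without control replicate 1). For Ndufaf2 and Ndufaf3 the groups did not overlap, but each call was lost without 1 of the controls and under quantile normalization (limma adjusted p = 0.0764 and 0.117). Ndufaf4, the partner of Ndufaf3, was not called, with 438, 432, 417 and 355 in IRKO, against 426 and 482 in the controls. Ndufaf1, of the membrane arm assembly complex, had 488, 464, 439 and 328 in IRKO, against 508 and 514 in the controls (limma adjusted p = 0.203). Ndufaf5, which modifies Ndufs7, had 370.5, 463, 459.5 and 398 in IRKO, against 448 and 483 in the controls (limma adjusted p = 0.397).

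Ndufaf8, a partner of Ndufaf5, was the assembly factor that rose. It had 1184, 1222, 1084 and 856 in IRKO, against 775 and 791 in the controls, so replicate 4 was close to the controls and the other 3 were well above. The log2 change was 0.46 ± 0.15 (SE, limma adjusted p = 0.0283). That call was lost without control replicate 1 (limma adjusted p = 0.116), control replicate 2 (0.0943) and IRKO replicates 1 (0.0576), 2 (0.0677) and 3 (0.0521), and it was also lost without a variance trend (0.0600). Scaled to the microglia markers, Ndufaf8 was lower (−1.15, limma adjusted p = 0.000102).

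Assembly factors of complex I outside the Nduf family were also lower. Of 12 analysed here, which leaves out Coa1, 8 fell, none rose and 4 (Dmac1, Dmac2, Lyrm2 and Tmem186) were not called, with a median log2 change of −0.73. Aifm1, a flavoprotein needed for import of some subunits, had 198 to 245 in IRKO, against 602 and 609.6 in the controls, and fell 2.76-fold. Acad9 (−1.23 ± 0.14 log2, SE), Ecsit (−1.06 ± 0.11), Tmem126b (−0.53 ± 0.16) and Timmdc1 (−0.85 ± 0.13) work with Ndufaf1 on the membrane arm, and all 4 fell. Foxred1 (−0.72 ± 0.12), Nubpl (−0.75 ± 0.23), which delivers iron-sulfur clusters, and Tmem70 (−0.73 ± 0.11), which also serves ATP synthase, made up the rest.

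Libraries of the same group did not contribute evenly. IRKO replicate 4 held the lowest IRKO value for 37 of the 47 tested Nduf genes (78.7%), against 29.5% of all tested genes. The same library had the lowest IRKO sum in complexes II, III, IV and V, the tricarboxylic acid cycle and the mitochondrial ribosomal proteins, the last with 45393, against 54381 to 56207 in the other 3 IRKO libraries. The summed Nduf value was 106581, 103630, 108516 and 84765 normalized counts in IRKO replicates 1 to 4, against 152211 and 168868 in control replicates 1 and 2. Replicate 4 was thus below the other IRKO libraries, and all 4 were below the controls. The mean was 100873 ± 10925 (SD, n = 4) in IRKO and 160539 ± 11778 (SD, n = 2) in the controls, a ratio of 0.628. As a share of the library total, the sum was 0.746%, 0.722%, 0.782% and 0.628% in IRKO, against 0.802% and 0.917% in the controls, a ratio of 0.837. The groups were closer on that scale, and the deposited totals were larger in the controls. Without IRKO replicate 4, 28 of the 47 Nduf genes were lower and 2 higher, against 28.4% and 25.1% of all tested genes.

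Other nuclear genes of mitochondrial energy metabolism were lower as well, so that the share of Nduf genes called lower was close to that of several other lists. Of 78 mitochondrial ribosomal protein genes 49 fell (62.8%) and 1 rose, with a median log2 change of −0.57 equal to that of the Nduf genes. In complex II 5 of 8 genes fell (median −0.89), in complex III 10 of 14 fell and 2 rose (−0.72), and in complex V 12 of 17 fell (−0.54). Complex IV was more divided, with 7 of 16 lower, 1 higher and a median of −0.25. Tricarboxylic acid cycle genes had a median of −1.33, with 16 of 17 lower. Whether these lists differ from the Nduf genes was not tested. Examples are Uqcrfs1, the Rieske protein of complex III, at −1.73 ± 0.11 (log2, SE), Atp5b, the catalytic subunit of ATP synthase, at −1.47 ± 0.13, and Cs, citrate synthase, at −2.06 ± 0.12. Cox4i2, a tissue-specific complex IV isoform, fell (−2.67 ± 0.25) where Cox6a2 rose (1.11 ± 0.21). Scaled to the microglia markers, Cox6a2 was not called (−0.50, limma adjusted p = 0.0952).

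**Figure D4:**
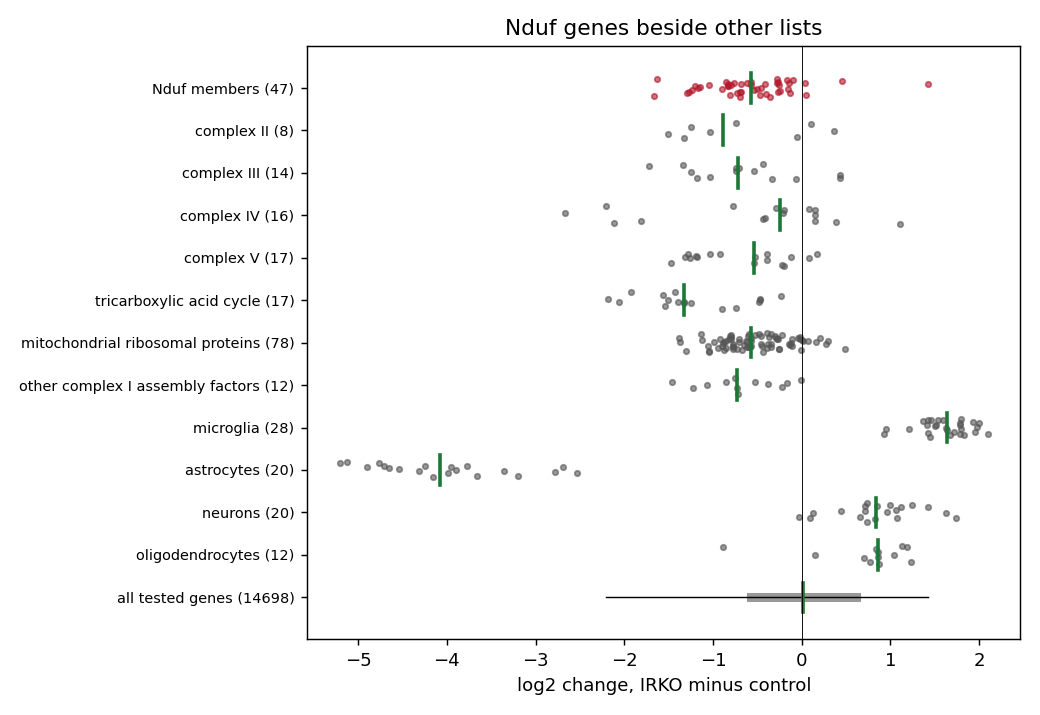
Log2 change (IRKO minus control) of each tested gene as a point, by list, with green bars for medians and the number of tested genes in brackets. For all tested genes the thick line spans the quartiles and the thin line the 5th to 95th percentiles. The Nduf genes have a median of −0.57, between astrocyte markers at −4.07 and microglia markers at 1.63.

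Of 14 regulators of mitochondrial biogenesis 4 fell (28.6%), 3 rose (21.4%) and 7 were not called, shares close to the 29.0% and 26.6% of all tested genes. Ppargc1a, the coactivator PGC-1α, had 265 to 324 in IRKO, against 511 and 540.3 in the controls, and fell (−0.85 ± 0.13 log2, SE), while its relative Ppargc1b had 253 to 284 in IRKO, against 90.0 and 143 in the controls, and rose (1.24 ± 0.19). Esrra, a nuclear receptor that acts with both, fell (−0.58 ± 0.11). Esrrb fell (−1.18 ± 0.37) and Esrrg rose (0.85 ± 0.25). The subunits of the factor GABP moved apart, with Gabpa lower (−0.81 ± 0.13) and Gabpb1 higher (0.59 ± 0.17). Nrf1, a factor of many respiratory chain promoters, was not called (−0.03 ± 0.15), nor was Tfam (−0.44 ± 0.19), which packages mitochondrial DNA. Scaled to the microglia markers, none of the 14 rose and 13 fell, where 84.3% of all tested genes were called lower.

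How far the Nduf genes were lower depended on the scaling of the libraries. Scaled to equal microglia markers, 46 of 47 fell and none rose, with a median of −2.18, but the median of all tested genes was then −1.60 and 84.3% of them were called lower. Under quantile normalization 21 fell and 3 rose, with a median of −0.38, against 0.12 for all tested genes. Of all tested genes, 24.2% were then called lower and 30.8% higher. The difference between the median of the Nduf genes and that of all tested genes was −0.59 as deposited and −0.51 under quantile normalization. Scaling to the microglia markers multiplies each library by 1 factor and so cannot move that difference. The 6 core subunits were all lower under each of these, with medians of −1.02 as deposited, −2.63 scaled to the microglia markers and −0.72 under quantile normalization. Quantile normalization ended the calls of Ndufa11, Ndufa12, Ndufa4, Ndufaf2, Ndufaf3, Ndufb5, Ndufb7 and Ndufv3, at limma adjusted p of 0.0557 to 0.336. The astrocyte markers, at a median of −4.07, and the red blood cell markers, at −7.06, had changed further than any Nduf gene. The part of these other cells' RNA in the fall of the Nduf genes was not tested.

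**Figure D5:**
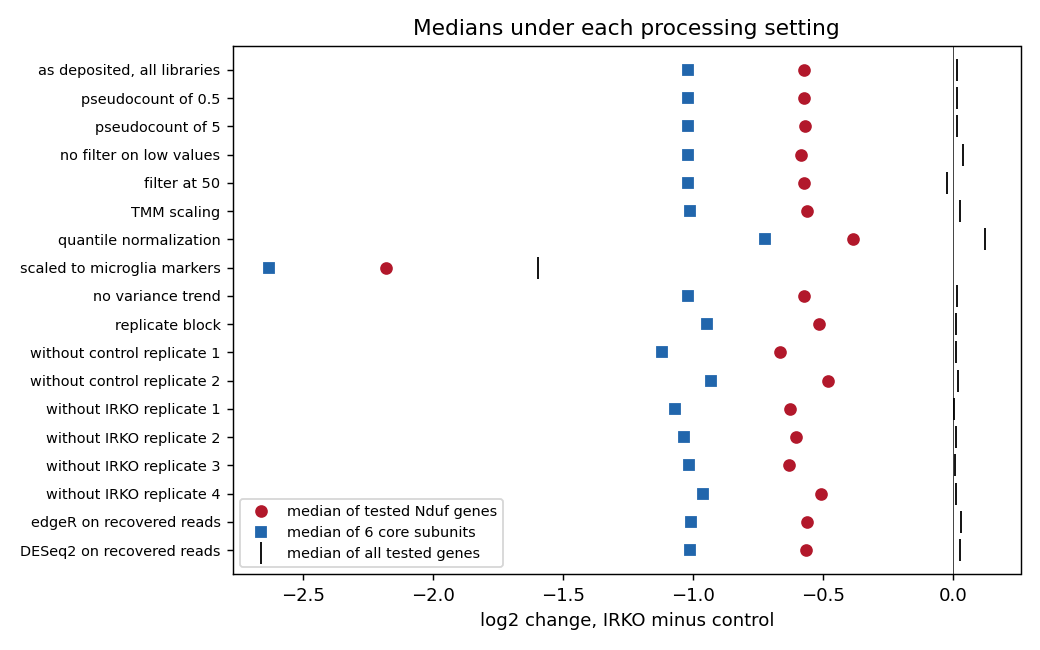
Medians of log2 change (horizontal axis, IRKO minus control) of the tested Nduf genes (circles, 47 genes, or 48 with no filter on low values), 6 core subunits (squares) and all tested genes (ticks) under each processing setting. The Nduf median stays below the median of all tested genes in every setting shown, and scaling to the microglia markers moves all 3 to lower values.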

How the data were processed

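Ribosome-bound RNA was measured in 4 IRKO and 2 control libraries. Per the submitters' processing notes, Bowtie2 and the mouse build GRCm38.p6 were used. For counting, annotation, strandedness and normalization, nothing is stated in the labels. The deposited values are a signal per gene: read counts divided by 1 size factor per library, per the file headers and the values, of which 100% came out as whole reads within 0.05 reads. In IRKO replicate 1 a read was worth 0.991, close to 1, and count tests were also run without it.

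Values were tested as log2(value + 1), which understates the change of low genes, with limma 3.58.1 in R 4.3.3 (moderated variances with a trend, two-sided p, Benjamini-Hochberg adjustment over 14698 genes, threshold 0.05). Tested genes reached 10 in at least 2 libraries. All 48 Nduf symbols matched RefSeq for GRCm38.p6. Modules and other lists came from textbook knowledge, and the members and lists were chosen with earlier results of these data known. There is 1 Nduf gene that is kept in the counts and sums over all Nduf genes but is otherwise not reported here. Per-library values were planned for core subunits, assembly factors and the 5 largest changes each way. The fit was tested on simulated data. Chi-square per degree of freedom between libraries of a group was 16.8 to 36.9, so no 2 files were 1 library within counting noise, which says nothing of repeat preparations of 1 sample. Alternatives were pseudocounts of 0.5 and 5, no filter, a filter at 50, TMM, quantile and microglia-marker scaling, no trend, a replicate block, leaving out each library, edgeR 4.0.16 and DESeq2 1.42.0. Promoter and protein sequences were not used here.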

Additional observations from a re-analysis of the deposited data

Results flagged for a closer look

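In 5 of the 47 tested Nduf genes 1 IRKO library lay far from the other 3, with a gap to its nearest neighbour, as a share of the group's range, above Dixon's 95% critical value for 4 samples. Chance gives such a gap in about 1 in 20 groups. In 4 of them the distant library was IRKO replicate 4, which was low. Ndufa13 had 4442 normalized counts, against 5462 to 5672 in the other 3 (a gap of 0.8292 of the range). Ndufa2 had 2176 normalized counts, against 3377 to 3582 in the other 3 (a gap of 0.8542 of the range). Ndufaf2 had 274 normalized counts, against 391 to 410.1 in the other 3 (a gap of 0.8624 of the range). Ndufb6 had 1067 normalized counts, against 1295 to 1330.0 in the other 3 (a gap of 0.8653 of the range). In Ndufb5 it was replicate 3 that was high, at 3718 normalized counts, against 2824 to 2882 in the other 3 (a gap of 0.9352 of the range). Without IRKO replicate 4 Ndufa13, Ndufaf2 and Ndufb6 were still lower in IRKO, with limma adjusted p of 0.00135, 0.0205 and 0.00174, and Ndufa2 was still not called (0.163). Ndufb5 without replicate 3 had an adjusted p of 0.00218 in limma.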

How the results depend on the processing

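Counts of Nduf genes lower in IRKO stayed within 1.5 times of 29 (21 to 31) in all alternatives except scaling to the microglia markers, which gave 46 lower and 0 higher, a median of −2.18, and 31 genes higher and 12392 lower over the whole table, against 3911 and 4262 as deposited. Of the 29 falls, 20 held in every alternative. The matching share over all tested genes is not given here. Scaling to the microglia markers lowered the log2 changes of all genes alike, so a fall could hardly be lost there. Quantile normalization moved the Nduf median to −0.38. The count of Nduf genes higher was 1 without a variance trend and 1 to 2 with a library left out, as the call of Ndufaf8 came and went. Leaving out an IRKO library gave 28 to 30 Nduf genes lower, where 27.0% to 28.4% of all tested genes were lower. With any 1 library left out, Nduf medians ran from −0.67 to −0.48 and ratios of the summed level from 0.597 to 0.663. That ratio was 0.628 as deposited, 0.837 as a share of the total and 0.207 scaled to the microglia markers. Quantile normalization turned uncalled Nduf genes positive, namely Ndufa1 (0.16), Ndufa3 (0.061), Ndufa6 (0.032), Ndufa8 (0.031), Ndufb4 (0.0083), Ndufb8 (0.20) and Ndufb9 (0.13). Scaling to the microglia markers turned Ndufa2 (−1.56), Ndufa5 (−1.57), Ndufaf8 (−1.15) and Ndufa4l2 (−0.19) negative. With a library left out, Ndufa2 ranged from −0.097 (without control replicate 1) to 0.22, and was also negative without IRKO replicate 1 and 2. Ndufa5 ranged from −0.016 (without IRKO replicate 3) to 0.11, and Ndufa1 from −0.19 to 0.051 (without IRKO replicate 4). Under the replicate block Ndufa1 stood at 0.070. The cause of these turns was not tested. Libraries share replicate numbers 1 and 2 across groups. Deviations from the group mean correlated at −0.08 and 0.08 between same-numbered libraries, and at −0.08 to 0.08 between differently numbered ones. With 2 controls, the deviations of 1 mirror those of the other, so these correlations cannot show whether a number marks a shared batch. The replicate block gave 27 Nduf genes lower and 2 higher, without Ndufaf2 and Ndufaf3 (limma adjusted p = 0.0632 and 0.0682), and 3691 and 3244 over all genes. edgeR and DESeq2 each gave 29 lower and 2 higher, and 28 and 31 lower without IRKO replicate 1, which was chosen after seeing the data. Of all tested genes, edgeR called 28.8% lower and 26.1% higher, and DESeq2 28.2% and 26.2%. Without IRKO replicate 1 each called 27.2% lower. With a control left out, the lone control is assumed to vary like the IRKO libraries. The 2 controls limit precision throughout, and the planned search of promoters for motifs was not run.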
